A study of Mus musculus with 4 samples.

Results

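The genes described here carry, store, bind or withhold zinc, iron and copper. They were chosen by name as protein-coding genes of the deposited count table: 10 zinc transporters of the ZnT family (Slc30a), 14 of the ZIP family (Slc39a) and 17 genes taken by symbol, from the metallothioneins Mt1 and Mt2 to the ferritins, the transferrin receptor and the copper pumps. That gives 41 genes of 31227 in the table. Of these, 38 had enough counts to be tested, and Slc30a3, Slc30a8 and Slc39a12 did not.

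Cells need zinc, iron and copper as parts of enzymes but are harmed by free metal ions, so uptake, storage and export are kept in balance. ZIP proteins move zinc into the cytosol and ZnT proteins move it out, into vesicles or out of the cell, while metallothioneins bind the surplus through their cysteines. Iron enters gut cells through Slc11a2 or, bound to transferrin, through the transferrin receptor, is stored in ferritin and leaves through ferroportin (Slc40a1). During infection and inflammation the host also withholds iron from bacteria with secreted proteins such as lactoferrin and lipocalin 2.

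RNA was sequenced from epithelial cells of the colon and counted per gene. All mice were 8 to 10 weeks old and had taken 3.5% dextran sulfate sodium (DSS), which damages the gut lining and causes colitis, in their drinking water for 5 days, then plain water, and were killed on day 7 (the labels' time field gives 5 days). Of the 4 libraries, 2 came from wild-type mice (WT, replicates 1 and 3) and 2 from mice with an epithelial knockout of Smad4 (Smad4 KO, replicates 1 and 2), the shared mediator of TGF-β and BMP signals. The sources used here give neither strain nor sex, nor the Cre driver, nor whether each library is a separate mouse, and no mice without DSS were analysed here.

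Smad4 itself, which checks the labels, stood at 152 and 180 CPM (read counts scaled to library size) in the WT libraries and at 51.5 and 41.1 CPM in the KO libraries (log2 fold change -1.84, edgeR adjusted p = 0.00163). Totals ran from 42577920 to 67927291 counts per library, so that a single count stood for 0.0150 to 0.0229 CPM. Libraries of the same genotype stood further apart than counting error allows (mean chi-square per gene of 37.6 for WT and 31.0 for KO, where counting error gives about 1), so p-values rest on the scatter of these 4 libraries alone, and that scatter may be technical. Epithelial markers were high throughout, with 10 markers such as Epcam, Krt8, Vil1 and Muc2 summing to 25932 to 25986 CPM in WT and 32630 to 33200 CPM in KO, where 6 of them rose and 1 fell.

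Of the 38 tested metal-handling genes, 11 rose in the KO libraries, 3 fell and 24 did not pass (edgeR quasi-likelihood test, adjusted p under 0.05 over all 15838 tested genes). The called share was 36.8%, beside 15.2% of all tested genes, of which 8.83% rose and 6.40% fell. The members were chosen with earlier results of these data known, so these shares are a description and no test. Called changes reached 2-fold or more in 6 members (15.8%), beside 6.95% of all genes: Ltf, Lcn2, Slc30a10 and Tfrc rose by at least that much, and Trf and Atp7b fell. Both KO libraries lay above both WT libraries for 21 of the tested members (55.3%, beside 31.0% of all genes) and below them for 7 (18.4%, beside 28.4%). The median log2 fold change was 0.17 over the tested members and 0.0075 over all genes. When KO replicate 1 or 2 was left out, fewer members rose, and fewer of all tested genes were called as well. Ltf, Tfrc, Heph, Slc39a4, Slc30a10, Trf and Atp7b kept their calls in each fit that left out a library, and the other called members did not.

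**Figure D1:**
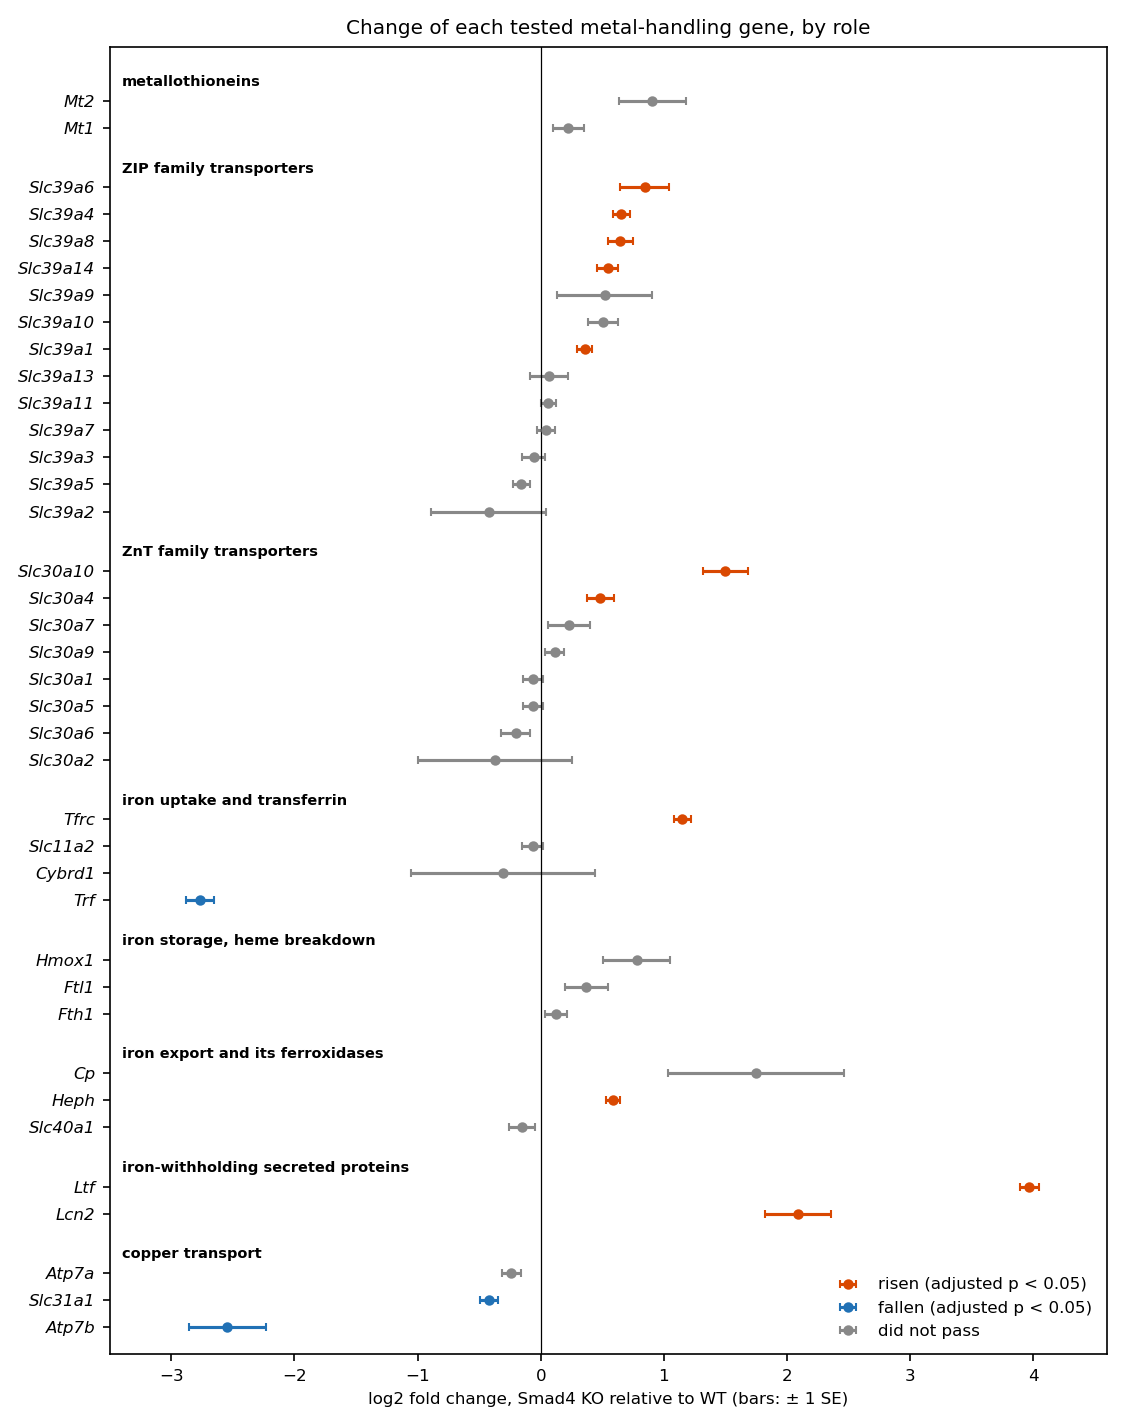
Log2 fold change of each tested member, Smad4 KO relative to WT, grouped by role (x axis, points with bars of 1 SE, 2 libraries per genotype; orange risen, blue fallen, grey did not pass). Ltf stands at 3.97 and Trf at -2.76, while the ZIP and ZnT genes lie between -0.42 and 0.85, except Slc30a10 at 1.50.

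The iron-withholding proteins showed the largest rise among the members. Ltf encodes lactoferrin, a secreted relative of transferrin that binds iron in milk, mucus and neutrophil granules. Its gene lies at chr9:111019271-111042767 (GRCm38, plus strand). It stood at 11.1 and 10.7 CPM in WT and at 168 and 172 CPM in KO. The genotypes did not overlap, and the libraries within each differed by little. The change was 15.6-fold (log2 fold change 3.97 with an SE of 0.0757, edgeR adjusted p = 4.92e-05). Lcn2 encodes lipocalin 2, which captures the bacterial iron carrier enterobactin. It had 1.06 and 1.42 CPM in WT and 5.52 and 5.02 CPM in KO. Its rise was 4.26-fold (log2 fold change 2.09 with an SE of 0.266, edgeR adjusted p = 0.00745), which did not hold without KO replicate 1 (edgeR adjusted p = 0.0525). Per kilobase of exon, a scale on which genes can be compared, Ltf reached a mean level of 49.3 CPM per kb in KO against 2.01 for Lcn2, while in WT the means were 3.15 and 0.473.

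Neutrophils carry both proteins, and markers of these cells differed between the same libraries. The 10 neutrophil markers summed to 103 to 130 CPM in WT and to 427 to 440 CPM in KO, and 5 of the 7 tested rose. Most of this sum was Ly6g (93.3 to 116 CPM in WT, 319 to 330 CPM in KO). S100a8, S100a9, Csf3r and Cxcr2 also rose (15.9-fold, 11.0-fold, 3.56-fold and 6.72-fold), and Retnlg and Ngp did not pass. The granule genes Mpo, Elane and Camp had no count in any of the 4 libraries, and Ngp, another granule gene, had none in WT and 0.233 and 0.465 CPM in KO. Macrophage markers summed to 10.6 to 12.8 CPM in WT and 34.9 to 37.4 CPM in KO, with 2 of 7 tested risen. Lymphocyte markers summed to 10.8 to 13.8 CPM in WT and 28.3 to 30.4 CPM in KO, with 1 of 8 tested risen. This was Ptprc, found on all white blood cells, with 6.77 and 7.13 CPM in WT and 16.4 and 19.4 CPM in KO. The called shares of these 3 lists were 71.4%, 28.6% and 12.5%, beside 15.2% of all tested genes. Endothelial markers summed to 6.67 to 7.85 CPM in WT and 7.85 to 8.90 CPM in KO, with 0 of 5 tested risen. The part of the white blood cells in the rise of Ltf and Lcn2 was not tested. In bulk RNA, more cells of a type and more RNA per cell cannot be told apart.

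**Figure D2:**
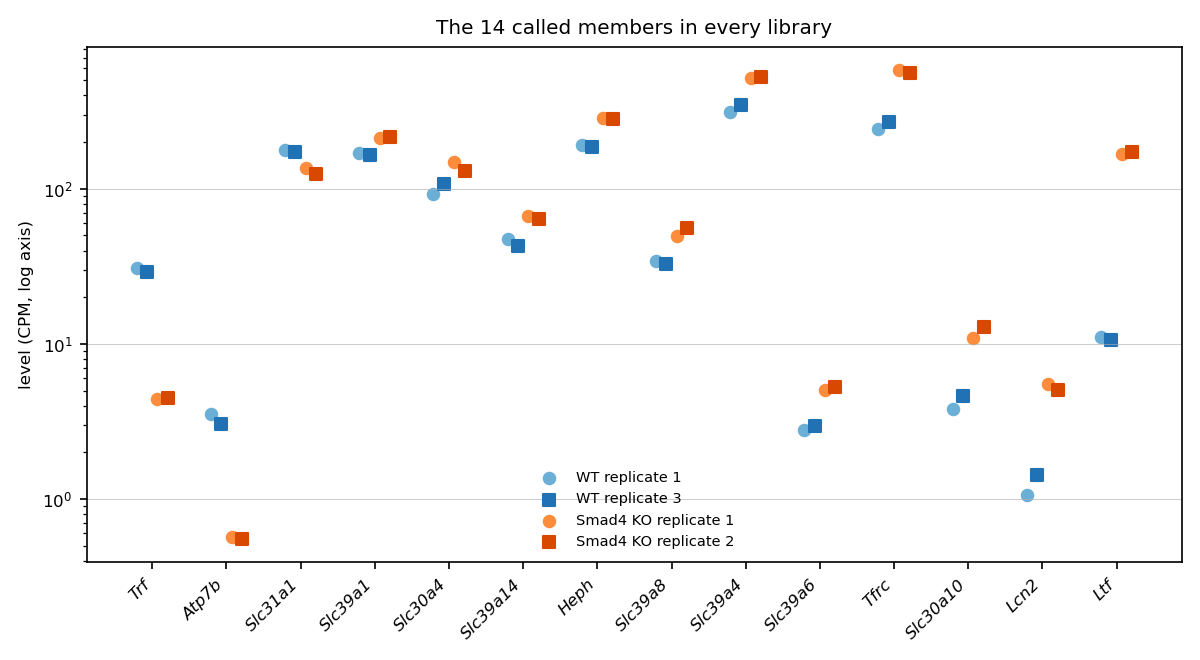
Level in CPM (log axis) of the 14 called members in each of the 4 libraries (blue WT, orange Smad4 KO; circles and squares mark the libraries), ordered by log2 fold change. In each of the 14 genes the WT and KO points do not overlap. These genes were picked by the test on the same 4 libraries, so this is no further support. Ltf moves from about 11 to about 170 CPM.

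The transferrin receptor gene rose, and the gene of transferrin itself fell. Tfrc (chr16:32608920-32632794, plus strand), the transferrin receptor that takes up iron-loaded transferrin from the blood side of the epithelium, stood at 244 and 268 CPM in WT and at 579 and 558 CPM in KO. It rose 2.22-fold (log2 fold change 1.15 with an SE of 0.0666, edgeR adjusted p = 0.000684). Trf (chr9:103204001-103230444, minus strand), which encodes transferrin itself, the iron carrier of plasma made mainly by the liver, was at 30.9 and 29.2 CPM in WT and at 4.39 and 4.45 CPM in KO. It fell 6.80-fold (log2 fold change -2.76 with an SE of 0.114, edgeR adjusted p = 0.000296). The gene model Gm20425 shares 63.5% of the Trf exon bases on the same strand but had no count in any library. Of the liver markers, Serpina1a, Fgb and Ahsg had no count in any library and Alb had 0.141 to 0.917 CPM, while Ttr, which gave most of that list's sum, was at 11.7 and 12.7 CPM in WT and 3.74 and 4.50 CPM in KO. The part of such cells in the fall of Trf was not tested.

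The import carrier on the luminal side, Slc11a2 (DMT1), had 54.1 and 60.2 CPM in WT and 53.5 and 55.6 CPM in KO. The genotypes overlapped and it did not pass (log2 fold change -0.07 with an SE of 0.0876, edgeR adjusted p = 0.678). Cybrd1, the duodenal ferric reductase, was scarce in this colonic tissue, with 0.195 to 0.353 CPM over the 4 libraries.

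Tfrc, both ferritin genes and ferroportin carry iron-responsive elements, short RNA hairpins to which the iron regulatory proteins Aco1 (IRP1) and Ireb2 (IRP2) bind when iron is low. Binding in the 5′ UTR of ferritin and ferroportin mRNA blocks translation, and binding in the 3′ UTR of Tfrc mRNA protects it from decay. A search of the UTRs of GENCODE M21 transcripts (GRCm38) for the loop CAGTGN between 5 paired bases, with a C just before the stem, found an element in 158 of 21866 protein-coding genes (0.723%), 4 of them members. All 4 were also among the 23 genes (0.105%) in which at least 4 of the next 6 base pairs could form. A match is a description of the sequence. The elements are shown because these 4 members matched the pattern. Slc11a2 had no match to these letters, which says nothing of elements of another form. The capitals mark the C before the stem and the loop, and the sequences are written as DNA.

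Tfrc 3′ UTR, chr16:32631219-32631247, plus strand: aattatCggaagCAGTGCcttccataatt
Tfrc 3′ UTR, chr16:32631598-32631626, plus strand: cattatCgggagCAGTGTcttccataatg
Tfrc 3′ UTR, chr16:32631663-32631691, plus strand: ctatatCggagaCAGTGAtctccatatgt
Tfrc 3′ UTR, chr16:32631710-32631738, plus strand: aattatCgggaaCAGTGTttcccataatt
Fth1 5′ UTR, chr19:9982732-9982760, plus strand: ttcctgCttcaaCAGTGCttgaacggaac
Ftl1 5′ UTR, chr7:45459779-45459807, minus strand: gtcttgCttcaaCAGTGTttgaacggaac
Slc40a1 5′ UTR, chr1:45925465-45925493, minus strand: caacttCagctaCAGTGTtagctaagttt

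Tfrc has 4 matches to this pattern, which can miss elements of another form. Of these 4 genes Tfrc rose, and Fth1, Ftl1 and Slc40a1 did not pass. The part of the elements in the Tfrc rise was not tested. The regulators themselves did not pass: Aco1 had a log2 fold change of -0.13 (edgeR adjusted p = 0.27) and Ireb2 of -0.13 (edgeR adjusted p = 0.29). Fbxl5, the iron-sensing subunit of the ubiquitin ligase that removes IRP2, rose 1.76-fold, from 80.4 and 74.7 CPM in WT to 137 and 136 CPM in the KO libraries (log2 fold change 0.82 with an SE of 0.0708, edgeR adjusted p = 0.00222).

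The ferritins, whose shells of heavy (Fth1) and light (Ftl1) subunits store iron, had the highest levels per kilobase of all members. Fth1 had 1033 and 1224 CPM in WT and 1234 and 1226 CPM in KO, a log2 fold change of 0.12 (SE 0.0858, edgeR adjusted p = 0.407). Ftl1 had 1158 and 797 CPM in WT and 1234 and 1295 CPM in KO, a log2 fold change of 0.37 (SE 0.172, edgeR adjusted p = 0.225). The WT libraries differed from each other by more than the KO libraries did, in opposite directions for the 2 subunits. Without WT replicate 3 Fth1 passed (edgeR adjusted p = 0.0164), and without WT replicate 1 Ftl1 did (edgeR adjusted p = 0.00348). Ftl1-ps1, a near copy of Ftl1 to which reads could have been assigned, had 15.0 to 17.2 CPM. Hmox1, the heme oxygenase that frees iron from heme, was low, at 5.70 and 3.46 CPM in WT and 7.84 and 7.93 CPM in KO, short of the threshold (log2 fold change 0.78 with an SE of 0.270, edgeR adjusted p = 0.125; 0.0265 without WT replicate 1).

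Of the export genes, the ferroxidase rose and the exporter did not pass. Heph encodes hephaestin, the copper-dependent ferroxidase of the gut epithelium that oxidises iron leaving the cell. It rose 1.50-fold, from 191 and 185 CPM in WT to 285 and 280 CPM in the KO libraries (log2 fold change 0.59 with an SE of 0.0574, edgeR adjusted p = 0.00325). Slc40a1, ferroportin, the iron exporter with which hephaestin works, had 303 and 359 CPM in WT and 315 and 281 CPM in the KO libraries (log2 fold change -0.15 with an SE of 0.105, edgeR adjusted p = 0.412), and its genotypes overlapped. Ceruloplasmin, the plasma relative of hephaestin encoded by Cp, had 0.229 and 0.734 CPM in WT and 2.16 and 1.05 CPM in KO, and the test was not passed (edgeR adjusted p = 0.178).

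Among ZIP genes 5 of 13 tested rose and none fell (8 did not pass), 38.5% called beside 15.2% of all genes, with a median log2 fold change of 0.36. Slc39a4, the main zinc importer of the gut lumen, mutated in the human zinc deficiency acrodermatitis enteropathica, had the highest level of the family per kilobase. Its gene lies at chr15:76612383-76617384 (minus strand). It stood at 314 and 349 CPM in WT and at 518 and 526 CPM in KO, with no overlap. It rose 1.57-fold (log2 fold change 0.66 with an SE of 0.0691, edgeR adjusted p = 0.00417). Slc39a1, a widely expressed importer of the plasma membrane, rose 1.28-fold, from 171 and 165 CPM to 213 and 217 CPM (edgeR adjusted p = 0.0173). Slc39a8 and Slc39a14, which carry manganese and iron as well as zinc, rose too. Slc39a8 went from 34.3 and 32.9 CPM in WT to 49.3 and 55.9 CPM in KO (1.57-fold, edgeR adjusted p = 0.0135). Slc39a14 went from 47.2 and 42.6 CPM to 66.8 and 64.1 CPM (1.46-fold, edgeR adjusted p = 0.0156). Slc39a6, a low-level importer, went from 2.79 and 2.96 CPM to 5.07 and 5.25 CPM (1.80-fold, edgeR adjusted p = 0.0491).

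Of these 5, Slc39a4 kept its call in every fit without a library. Slc39a1 and Slc39a14 lost theirs when KO replicate 1 or 2 was left out (edgeR adjusted p up to 0.150 and 0.123), Slc39a8 without KO replicate 2 (0.0962), and Slc39a6 without any of the 4 in turn (up to 0.228). Slc39a10, another plasma membrane importer, had 21.9 and 26.0 CPM in WT and 34.8 and 33.1 CPM in KO and narrowly missed the threshold (log2 fold change 0.50 with an SE of 0.122, edgeR adjusted p = 0.0515). The other members of the family had log2 fold changes of -0.42 to 0.52. Slc39a5, which sits on the basolateral side of gut cells, had 75.8 and 71.7 CPM in WT and 65.9 and 66.4 CPM in the KO libraries (log2 fold change -0.16 with an SE of 0.0712, edgeR adjusted p = 0.219). Slc39a9 had 186 CPM in WT replicate 1 and 189 and 188 CPM in KO, but 77.4 CPM in WT replicate 3. Without WT replicate 1 it therefore passed as higher in KO (log2 fold change 1.27, edgeR adjusted p = 0.00178), and with all libraries it did not (edgeR adjusted p = 0.441).

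Per kilobase of exon in WT, the ZIP order was Slc39a4 (mean level 107 CPM per kb), Slc39a1 (71.0), Slc39a7 (44.5), Slc39a11 (43.0) and Slc39a5 (33.1), and the remaining 9 were at 13.0 or below. Slc39a7 and Slc39a11 did not separate, with 42.6 and 46.5 against 42.7 and 43.3 CPM per kb in the WT libraries. By the KO means the first 5 places were held by the same genes in the same order. Slc39a4 was at 168, Slc39a1 at 91.0, Slc39a7 at 46.0, Slc39a11 at 44.9 and Slc39a5 at 29.7 CPM per kb. Slc39a7 and Slc39a11 did not separate in the KO libraries either, with 46.18 and 45.77 against 43.98 and 45.81 CPM per kb. Slc39a12 had no count in any library, which allows a level of up to 0.0450 to 0.0688 CPM per library (3 counts, counting error only).

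**Figure D3:**
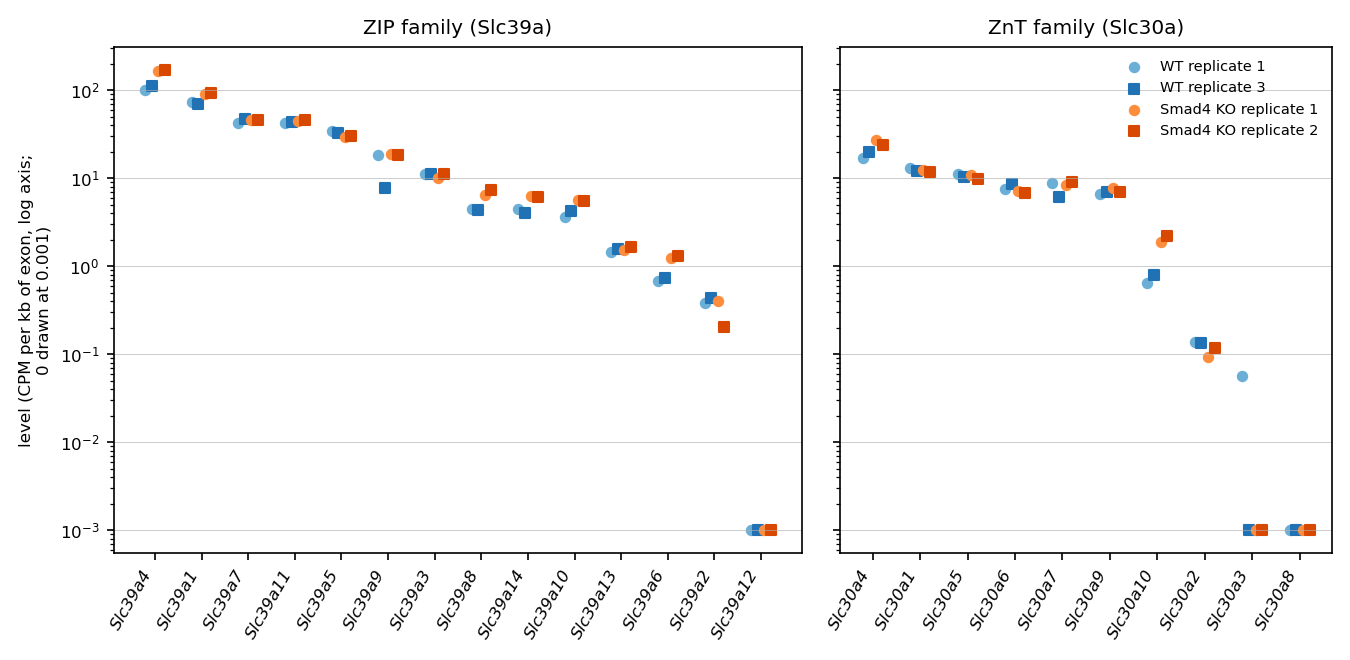
Level of each ZIP (left) and ZnT (right) gene in each library, in CPM per kb of exon on a log axis, ordered by the WT mean; a library with no count is drawn at 0.001. Slc39a4 leads the ZIP genes with 101 to 112 CPM per kb in WT and 167 to 169 in KO, and Slc30a4 leads the ZnT genes with 16.8 to 19.7 in WT and 23.9 to 27.1 in KO.

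Among ZnT genes 2 of 8 tested rose, none fell and 6 did not pass (25.0% called beside 15.2% of all genes), with a median log2 fold change of 0.03. Slc30a10 (chr1:185454848-185468762, plus strand), which is known as an exporter of manganese, rose 2.83-fold, from 3.79 and 4.61 CPM in WT to 10.9 and 12.8 CPM in the KO libraries (log2 fold change 1.50 with an SE of 0.183, edgeR adjusted p = 0.00656). The long noncoding gene Gm2061 overlaps 9.13% of its exon bases on the opposite strand and was at 0.353 and 0.321 CPM in WT and 2.20 and 2.86 CPM in KO. The sources used here do not say whether counting kept the strands apart, and its part in the Slc30a10 counts was not tested. Slc30a4, which loads zinc into vesicles, rose 1.40-fold, from 91.9 and 108 CPM to 148 and 131 CPM (log2 fold change 0.48 with an SE of 0.110, edgeR adjusted p = 0.0432). It no longer passed without WT replicate 1, KO replicate 1 or KO replicate 2 (edgeR adjusted p up to 0.201).

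Slc30a1, the zinc exporter of the plasma membrane, had 68.6 and 63.4 CPM in WT and 65.1 and 61.4 CPM in KO. The genotypes overlapped and it did not pass (log2 fold change -0.06 with an SE of 0.0812, edgeR adjusted p = 0.683). Slc30a5, Slc30a6, Slc30a7 and Slc30a9, which serve the secretory pathway or other internal membranes, had log2 fold changes of -0.20 to 0.23. Without WT replicate 1, Slc30a7 passed as higher in KO (log2 fold change 0.50, edgeR adjusted p = 0.0267). Slc30a2 was at 0.333 to 0.494 CPM over the 4 libraries. The neuronal Slc30a3 had counts only in WT replicate 1 (0.159 CPM), and Slc30a8, the zinc transporter of insulin granules, had none.

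The metallothioneins did not pass. Mt1 had 51.1 and 40.8 CPM in WT and 54.1 and 53.2 CPM in the KO libraries (log2 fold change 0.22 with an SE of 0.125, edgeR adjusted p = 0.306). Mt2 had 6.74 and 3.99 CPM in WT and 10.2 and 10.0 CPM in KO, with no overlap (log2 fold change 0.91 with an SE of 0.271, edgeR adjusted p = 0.0884). For Mt2 the call turned on the method and on WT replicate 1: DESeq2 gave an adjusted p of 0.0248, and edgeR without WT replicate 1 gave 0.0154. An antisense gene, Gm45774, covers 73.5% of the Mt2 exon bases and had 0.803 to 1.53 CPM.

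Metallothionein genes and Slc30a1 are classic targets of Mtf1, the zinc-sensing factor that binds metal response elements. The core of this element was searched as TGCACNC or TGCGCNC on both strands of RefSeq promoters (GRCm38.p6, 250 bases before to 50 after the start), which exist in the table used for 32 of the members, in 40 windows. It was found in 17 of these 40 windows (42.5%), beside 25.7% of all 32851 promoter windows. The promoters of Mt2, which did not pass, and of the 2 risen ZnT genes are shown as examples that hold several matches each. Mt1, Slc30a1, Slc30a2 and Atp7a, which did not pass, and Tfrc, which rose, also hold repeated matches but are not shown. The 250 bases before the start are given 5′ to 3′ in the direction of the gene, with the matches in capitals.

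Mt2, chr8:94172368-94172617, plus strand: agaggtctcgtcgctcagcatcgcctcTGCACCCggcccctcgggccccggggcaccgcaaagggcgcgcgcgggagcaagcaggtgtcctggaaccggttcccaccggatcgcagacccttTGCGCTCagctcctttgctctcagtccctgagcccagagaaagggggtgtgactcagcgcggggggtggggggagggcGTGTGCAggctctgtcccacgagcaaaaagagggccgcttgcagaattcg
Slc30a10, chr1:185454598-185454847, plus strand: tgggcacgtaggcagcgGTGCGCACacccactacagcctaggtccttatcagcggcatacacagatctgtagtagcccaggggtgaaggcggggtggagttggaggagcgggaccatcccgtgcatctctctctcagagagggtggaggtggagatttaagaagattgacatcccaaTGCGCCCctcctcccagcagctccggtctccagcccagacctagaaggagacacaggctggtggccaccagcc
Slc30a4, chr2:122702664-122702913, minus strand: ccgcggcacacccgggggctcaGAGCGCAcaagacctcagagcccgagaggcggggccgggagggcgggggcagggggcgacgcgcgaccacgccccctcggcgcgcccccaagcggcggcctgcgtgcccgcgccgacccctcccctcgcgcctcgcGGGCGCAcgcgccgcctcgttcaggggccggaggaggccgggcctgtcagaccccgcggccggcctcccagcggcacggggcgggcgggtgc

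A further match of Mt2 lies after its start. In the Slc30a10 window the first capitals are 2 overlapping matches on opposite strands, and in Slc30a4 a further match spans the start and lies partly outside the window shown. The 16 genes with a match also include Slc39a8 and Tfrc, which rose, and Atp7b, which fell. The others are Mt1, Slc30a1, Slc30a2, Slc30a5, Slc39a3, Slc39a5, Slc39a11, Slc39a13 and Atp7a, which did not pass, and Slc30a3, which was not tested. The antioxidant response element TGACNNNGC was in 17.5% of the members' windows and 12.4% of all windows, and the BMP-responsive Smad sequence GGCGCC in 15.0% and 11.9%. The Smad palindrome GTCTAGAC was in no member window and in 0.213% of all windows. Mtf1 mRNA itself had a log2 fold change of 0.22 and did not pass (edgeR adjusted p = 0.21).

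Copper transport genes were lower where they changed. Slc31a1 (Ctr1), the copper importer, fell from 179 and 171 CPM in WT to 136 and 125 CPM in the KO libraries (log2 fold change -0.42 with an SE of 0.0715, edgeR adjusted p = 0.0182), which no longer passed when KO replicate 1 or 2 was left out (edgeR adjusted p up to 0.149). Atp7b (chr8:21992785-22060305, minus strand), the copper pump that is defective in Wilson disease, fell 5.84-fold from a low level, 3.51 and 3.05 CPM in WT, to 0.566 and 0.555 CPM in the KO libraries (log2 fold change -2.55 with an SE of 0.311, edgeR adjusted p = 0.00656). Atp7a, the pump that delivers copper from gut cells to the blood and is defective in Menkes disease, had 57.7 and 59.3 CPM in WT and 50.6 and 48.6 CPM in KO, and the test was not passed (log2 fold change -0.24 with an SE of 0.0762, edgeR adjusted p = 0.103). Both KO libraries lay below both WT libraries for each of the 3 copper genes, as for 28.4% of all tested genes. Per kilobase, Atp7a had 6.70 CPM per kb in WT and 5.68 in KO, against 0.504 and 0.0861 for Atp7b.

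Other genes of metal handling were followed in 6 lists, also chosen with earlier results of these data known. Mtf1 is on both the zinc and the copper list. Over their 95 distinct tested genes that are no members, 16 rose, 7 fell and 72 did not pass (24.2% called, beside the 15.2% of all genes). In the list of zinc regulation and binding, 4 of 8 rose and none fell (50.0% called beside 15.2% of all genes). S100a8 and S100a9, whose complex calprotectin binds zinc and manganese, are also on the neutrophil list, and rose 15.9-fold and 11.0-fold (edgeR adjusted p = 0.00246 and 0.000434). The zinc-sensing receptor Gpr39 rose from 19.4 and 18.5 CPM to 27.7 and 30.4 CPM (edgeR adjusted p = 0.0194), but not without WT replicate 3 or a KO library (edgeR adjusted p up to 0.140). Mt4, a metallothionein of stratified epithelia, rose from 0.0705 and 0 CPM to 1.21 and 0.899 CPM (edgeR adjusted p = 0.0450, and up to 0.229 without either KO library).

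In the list of iron regulation 2 of 13 tested genes rose and 1 fell (23.1% called beside 15.2% of all genes). Beside Fbxl5, Hif1a rose 1.33-fold (edgeR adjusted p = 0.0370, and 0.0569 with library totals), which did not hold without any of the 4 libraries in turn. Hamp2, a relative of the iron hormone hepcidin, had 0.987 and 0.413 CPM in WT and no count in KO, a level at least 29.6-fold lower (taking 3 counts in the group as the floor; edgeR adjusted p = 0.0336, and lost without any of the 4 libraries in turn). Herc2, a ubiquitin ligase that acts on the ferritin-turnover receptor Ncoa4, did not pass (137 and 144 CPM in WT, 118 and 125 CPM in KO; edgeR adjusted p = 0.113). Epas1 (HIF-2α), which drives iron absorption genes in the gut, had a log2 fold change of 0.0044 (edgeR adjusted p = 0.97). Hamp itself was at 0.317 CPM or below in each library.

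Of 15 tested iron chaperones and reductases, 2 rose and 2 fell (26.7% called beside the same 15.2%). Slc46a1, a folate transporter that also takes up heme, fell 5.29-fold, from 21.6 and 23.3 CPM in WT to 4.34 and 4.14 CPM in KO (edgeR adjusted p = 0.000532). The endosomal ferrireductase Steap3, which reduces iron released from transferrin, fell 2.28-fold, from 67.4 and 60.3 CPM to 26.6 and 29.4 CPM (edgeR adjusted p = 0.00230). Its relative Steap4 rose 2.65-fold, from 7.49 ± 1.87 CPM (SD, n = 2) to 19.9 ± 1.54 CPM (edgeR adjusted p = 0.0106, and 0.0600 without KO replicate 2). Slc11a1, the metal carrier of phagocyte vesicles, rose from 0.723 and 1.17 CPM in WT to 2.91 and 2.89 CPM in KO (edgeR adjusted p = 0.0401, and up to 0.176 without WT replicate 1 or either KO library), and the part of phagocytes in this rise was not tested.

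Of 29 tested genes of mitochondrial iron and heme synthesis, 2 rose and 3 fell, a called share of 17.2% beside 15.2% of all genes, and the median log2 fold change was -0.08. Slc25a37 (mitoferrin 1), the mitochondrial iron importer, rose 2.38-fold, from 56.0 and 66.9 CPM in WT to 145 and 147 CPM in KO (edgeR adjusted p = 0.00187). Mitoferrin 1 is abundant in erythroid cells, whose 8 markers summed to 1.97 to 3.90 CPM in WT and 9.70 to 10.3 CPM in KO. Of the 5 tested, 1 rose (Hba-a1) and 4 did not pass. The part of these cells in the Slc25a37 rise was not tested. Alas1, the first enzyme of heme synthesis, rose 1.33-fold, from 145 and 159 CPM in WT to 206 and 198 CPM in KO (edgeR adjusted p = 0.0218, and up to 0.135 when KO replicate 1 or 2 was left out). Urod, a later enzyme of the same pathway, fell from 25.2 and 23.9 CPM to 13.6 and 13.2 CPM (edgeR adjusted p = 0.00606, and 0.0575 without KO replicate 2). The heme exporter Flvcr1 fell from 14.2 and 17.4 CPM to 7.29 and 8.53 CPM (edgeR adjusted p = 0.0175), and the mitochondrial carrier Abcb10 from 60.1 and 60.6 CPM to 39.8 and 43.7 CPM (edgeR adjusted p = 0.0156). Neither passed when KO replicate 1 or 2 was left out (edgeR adjusted p up to 0.0973 and 0.139).

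Of 19 tested copper chaperones and copper enzymes, 2 rose and 1 fell, a called share of 15.8% that is close to the 15.2% of all genes. Aoc1, a copper-containing diamine oxidase that breaks down histamine, fell 2.04-fold, from 272 and 274 CPM in WT to 122 and 146 CPM in KO (edgeR adjusted p = 0.00314). Xiap, an inhibitor of apoptosis that also binds copper, rose 1.36-fold (edgeR adjusted p = 0.0457). It did not pass without WT replicate 1 or a KO library (edgeR adjusted p up to 0.215), nor with DESeq2 size factors or library totals (up to 0.0686). Sco1, which helps load copper into cytochrome c oxidase, had 46.6 and 49.1 CPM in WT and 53.9 and 56.5 CPM in KO (edgeR adjusted p = 0.162). Lox, the copper enzyme that cross-links collagen, had no count in WT and 0.482 and 0.435 CPM in KO, a level at least 15.3-fold higher (taking the same floor in WT; edgeR adjusted p = 0.0406, lost without any of the 4 libraries in turn). Lox is a product of fibroblasts, whose 10 markers summed to 32.8 to 37.8 CPM in WT and 61.6 to 71.9 CPM in KO. Of the 7 tested, 2 rose (Dcn and Fbln1) and 5 did not pass (28.6% called beside 15.2% of all genes). Fbln1 went from 9.73 and 10.3 CPM in WT to 28.1 and 34.7 CPM in KO, while Col1a1 and Col3a1 overlapped between the genotypes. The part of fibroblasts in the Lox rise was not tested. The copper chaperone Atox1, which hands copper to Atp7a and Atp7b, was at 38.1 to 44.3 CPM over the 4 libraries.

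**Figure D4:**
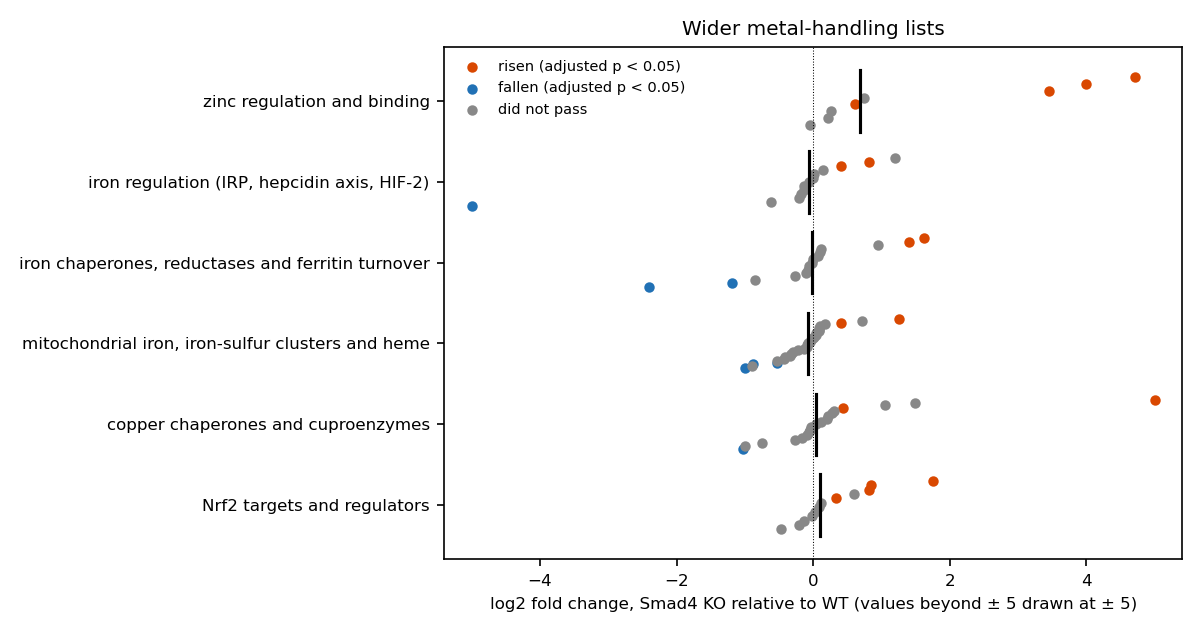
Log2 fold change (x axis, Smad4 KO relative to WT, values beyond 5 drawn at 5, as for Hamp2 and Lox, whose fitted values are no bounds because a genotype had no count) of each tested gene in the 6 wider lists, with the list median as a black bar. The medians of the iron, heme and copper lists lie between -0.08 and 0.04, with called genes on both sides.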

How the data were processed

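Colonic epithelial RNA of 4 libraries was analysed from the authors' deposited table of raw gene counts (whole numbers per Ensembl gene, not normalized). Per the labels' protocols, 1.5 µg of TRIZOL-extracted total RNA was primed with random hexamers. The submitters' processing notes name FastQC (given as 0.19.7), HISAT2 2.1.0, SAMtools 1.9, StringTie 1.3.3b and GRCm38; the counter, its annotation and its use of strand are not stated in what was used here. Symbols, positions and exon union lengths came from GENCODE M21 (31207 of 31227 IDs matched). Per-kilobase levels use the union of all annotated exons, so genes with long rare isoforms read low.

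Of 19618 genes with counts, filterByExpr kept 15838. The fit was edgeR 4.0.16 (R 4.3.3) with TMM and genotype as the only term: quasi-likelihood F test, Benjamini-Hochberg adjustment over all tested genes, threshold 0.05. In simulated data all recovered changes had the right sign, but a larger share of the calls was false than the threshold implies. Far fewer genes were changed there than were called here, so the false share among these calls may differ. CPM use TMM-scaled library sizes, and the SE is the log2 fold change divided by the square root of F. A count of 0 allows up to 3 counts, the floor used, for counting error only.

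All members could be named. Of each wider list the up to 4 genes with the smallest p were named. Alas1, Aco1, Ireb2, Epas1, Hamp, Mtf1, Atox1, Nfe2l2 and Nqo1 were added after their values were seen. So were Gclc, Gclm, Gstm1, G6pdx, Keap1 and Bach1, which were not followed over the other settings. The values per library of Slc39a9 and Slc39a10 were likewise added after they were seen. The members and lists were chosen with earlier results of these data known. Alternatives were other scalings and filters, DESeq2 1.42.0, limma-voom (limma 3.58.1), a 2-fold minimum and leaving out each library. A protein motif search was not run, as no protein table was used here.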

Additional observations from a re-analysis of the deposited data

How the results depend on the processing

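Over the other scalings, filters and tests (library totals, DESeq2 size factors, upper quartile, no filter, 1 CPM filter, DESeq2, limma-voom), 9 to 13 members rose and 3 fell, against 11 and 3. Of the 14 called members, 12 kept their calls in all of these; Slc30a4 lost its call with library totals, and Slc39a6 with library totals, DESeq2 size factors and limma-voom. Among the wider genes named, Hif1a lost its call with library totals, and Xiap with these and with DESeq2 size factors. Nqo1 gained a call with either other filter, DESeq2 and limma-voom. Slc39a10 gained a call in 5 of these settings. With a 2-fold minimum 4 members rose and 2 fell, and in the wider lists 8 rose and 4 fell (16 and 7 without it); DESeq2 called 12 of the wider genes as fallen. Leaving out each library in turn gave 6 to 14 risen and 2 to 3 fallen members, and 6 to 14 risen and 3 to 8 fallen wider genes. The lowest counts came without a KO library, when the calls over all genes fell from 2412 to 978 (without replicate 1) and 975 (without replicate 2); each such fit has 1 library in an arm, assumed to vary like the others.

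Genes that had not passed changed sign in some fits. With library totals Slc39a7 went to -0.0063 on the log2 scale and Epas1 to -0.048, and Epas1 was at -0.0039 with DESeq2 size factors and -0.0037 by DESeq2. The range over the fits that left out a library was -0.73 to 0.030 for Cybrd1, -0.0065 to 0.25 for Fth1, -0.15 to 0.014 for Slc11a2, -0.14 to 0.0083 for Slc30a5, -0.0020 to 0.50 for Slc30a7, -0.0035 to 0.13 for Slc39a13, -0.14 to 0.027 for Slc39a3, -0.029 to 0.11 for Slc39a7 and -0.032 to 0.030 for Epas1. The cause was not tested. No paired analysis was possible because the genotypes share only replicate number 1. Adding ferritin pseudogene counts was not run, since 0 rows of the table are annotated as such pseudogenes. Slc30a3, Slc30a8 and Slc39a12 had too few counts to be tested at this depth, and each genotype has 2 libraries.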

Other observations

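Genes of the Nrf2 antioxidant response, a programme to which Hmox1, the ferritins and the glutathione enzymes belong, gave 4 risen and no fallen genes among 12 tested (33.3% called beside 15.2% of all genes), with a median log2 fold change of 0.10. The glutamate-cystine exchanger Slc7a11 rose 3.37-fold, from 4.27 and 3.85 CPM in WT to 12.8 and 14.7 CPM in KO (edgeR adjusted p = 0.00261). The sulfiredoxin Srxn1 rose 1.79-fold, from 110 and 101 CPM to 189 and 190 CPM (edgeR adjusted p = 0.00212). The thioredoxin reductase Txnrd1 rose 1.25-fold (edgeR adjusted p = 0.0207) and the glutathione transferase Gsta1 1.76-fold (edgeR adjusted p = 0.0417). Txnrd1 did not pass when KO replicate 1 or 2 was left out (edgeR adjusted p up to 0.153), nor did Gsta1 then or without WT replicate 3 (up to 0.193). Nfe2l2, which encodes Nrf2, had a log2 fold change of 0.09 and did not pass (edgeR adjusted p = 0.465), and Nqo1 narrowly did not (log2 fold change 0.59, edgeR adjusted p = 0.0529; 0.0109 by DESeq2). The glutathione enzymes Gclc, Gclm and Gstm1 did not pass, with log2 fold changes of 0.12, 0.02 and -0.47. Gstm1 had 94.1 and 83.5 CPM in WT and 56.3 and 72.3 CPM in KO (edgeR adjusted p = 0.0882). G6pdx, Keap1 and Bach1 did not pass either, with log2 fold changes of -0.14, -0.20 and -0.02. All genes of this list but the 4 risen were added after their values were seen.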
